A study of Homo sapiens with 8 samples.

Results

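Integrin subunit genes that encode receptors for collagen and for ligands carrying the arginine-glycine-aspartate (RGD) motif were examined across 4 hydrogels. The 10 genes, ITGA1, ITGA2, ITGA3, ITGA5, ITGAV, ITGB1, ITGB3, ITGB5, ITGB6 and ITGB8, were chosen by name and not by any measured value. All 10 were among the 25369 gene symbols listed, and all 10 were among the 13369 genes tested, the genes with 2 or more libraries at a normalized count of 10 or above. RNA-seq was performed on MCF10A cells, a spontaneously immortalized, non-malignant human mammary epithelial line, after 7 days of encapsulation, with 2 libraries for each of 4 gels. Soft IPN and stiff IPN were interpenetrating networks of alginate with reconstituted basement membrane (rBM, the laminin-rich product Matrigel), and the stiff one had been crosslinked with calcium. Soft col:rBM was a mixture of rat tail type I collagen (col-1) with rBM. Stiff col was a col-1 gel whose name lists no rBM. The methods give a single rBM concentration for all experiments, so whether rBM was mixed into stiff col is not known here. All gels, stiff col included, were cast over a layer of gelled rBM, so rBM was present under every culture. Stiff col and stiff IPN differed in col-1, alginate, calcium and, by name, rBM together, and the part of each cannot be told apart. Stiff IPN differed from soft IPN in calcium as well as stiffness, and these cannot be separated. Stiff col likewise differed from soft col:rBM in col-1 density and, by name, in rBM. A stiffness effect below means the difference of a stiff gel from the soft gel of its system, whatever its source. The line is a single line, and cells were lysed with their gel, so fewer cells and less RNA per cell cannot be told apart either. A normalized count is a read count divided by 1 factor per library and rounded, and the libraries held 14306848 to 17999273 normalized counts, and the read depths estimated from the values themselves were 13065615 to 18583116.

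Integrins are transmembrane receptors of 1 alpha and 1 beta subunit that bind the extracellular matrix outside the cell and, through talin and kindlin, the actin cytoskeleton inside it. The subunit ITGB1 pairs with ITGA1 and ITGA2 to form collagen receptors, with ITGA3 to form a receptor for laminins, and with ITGA5 to form the classical fibronectin receptor, which reads the RGD motif. ITGAV pairs with ITGB1, ITGB3, ITGB5, ITGB6 or ITGB8 to form receptors for vitronectin, fibronectin and the latent form of TGF-beta. In the mammary epithelium, laminin receptors anchor cells to the basement membrane, and fibronectin receptors, with ITGB6, are known for their rise in wounds and tumours. The gels vary both ligand and stiffness, and the comparisons ask how each subunit's transcript varied with them.

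The start regions of ITGA5 and ITGB6 are shown because these were the members that passed the test in any comparison of gels, once the replicate number was included in the fit, and they moved in opposite directions. Each sequence is the RefSeq promoter window (GRCh38.p14), 250 bases before to 50 bases after the gene's start, read on the gene's own strand and placed in hg19 by an exact and unique match. Capitals mark matches to the motifs searched on both strands.
ITGA5, chr12:54813001-54813300, minus strand: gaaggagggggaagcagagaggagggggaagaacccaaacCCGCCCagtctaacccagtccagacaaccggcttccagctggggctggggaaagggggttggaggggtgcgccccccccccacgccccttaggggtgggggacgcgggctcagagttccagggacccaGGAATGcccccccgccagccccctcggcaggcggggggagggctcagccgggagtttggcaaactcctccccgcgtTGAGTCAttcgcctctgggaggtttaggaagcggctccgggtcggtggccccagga
ITGB6, chr2:161056734-161057033, minus strand: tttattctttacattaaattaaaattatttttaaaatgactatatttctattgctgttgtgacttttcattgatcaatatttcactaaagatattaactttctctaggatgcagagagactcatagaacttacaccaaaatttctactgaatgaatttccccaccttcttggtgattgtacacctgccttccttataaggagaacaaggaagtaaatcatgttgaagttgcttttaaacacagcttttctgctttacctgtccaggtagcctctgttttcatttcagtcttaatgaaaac
The motifs were an AP-1 site (TGANTCA), a GC box (GGGCGG), a TEAD site (GGAATG) and a TATA box (TATAAA), and none of them overlapped in the ITGA5 window. The ITGA5 window held a GC box on the opposite strand from position -210, a TEAD match from -82 and an AP-1 match from -6, counted from the start at 1 with no position 0. Of 35116 promoter windows of this length, 45.0% held the GC box, 14% the TEAD letters, 7.71% the AP-1 letters and 11.5% the TATA letters. The ITGB6 window held none of the 4 motifs, which says only that these letters were not in it. The windows also differed in base composition, with 69.3% G and C for ITGA5 and 31.7% for ITGB6, lower than all but 1.95% of windows, against a median of 58.7%.

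The 10 subunits spanned a wide range of transcript level, and the order was led by the laminin and fibronectin receptors. Per kb of exon (the merged exons of each gene in the hg19 annotation), ITGA5 averaged 4046 normalized counts over the 8 libraries, ITGB1 2284 and ITGA3 1919, above 98.8%, 98.1% and 97.7% of the 12088 tested genes with a known length. A middle group held ITGB5 at 361 normalized counts per kb, ITGA2 at 348, ITGB6 at 266 and ITGAV at 127. ITGB8 at 42.7, ITGB3 at 31.6 and ITGA1 at 16.5 normalized counts per kb lay below the median of all tested genes, 70.0. Neighbours within each of these groups overlapped in their libraries, since ITGA5 alone ranged from 618 to 8163 normalized counts per kb and ITGB1 from 1444 to 3270. The upper and middle groups did not overlap: the lowest upper value was the 618 of ITGA5, and the highest middle value was 499 for ITGA2.

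**Figure D1:**
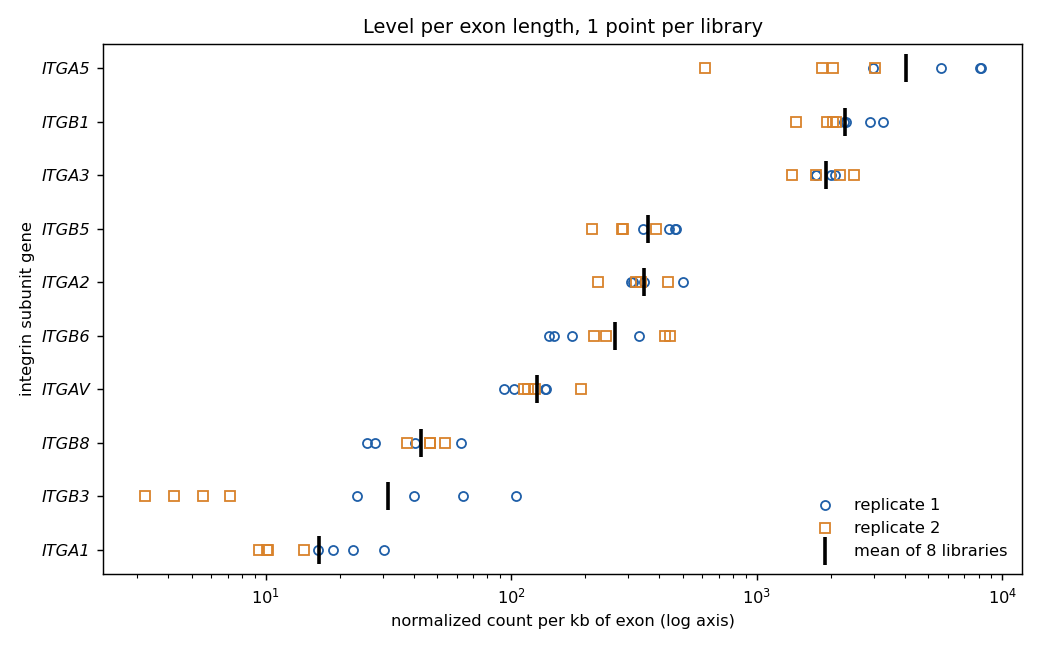
Normalized count per kb of exon (log axis) for each subunit gene, with 1 point per library and the mean of the 8 libraries as a bar. ITGA5, ITGB1 and ITGA3 lie at the top with means of 4046, 2284 and 1919, and ITGA1 lies lowest with a mean of 16.5, while the libraries of ITGB3 and ITGA5 are spread most widely.

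The collagen-binding alpha subunits were present in every gel, including the IPNs, which contain no col-1. ITGA1 (chr5:52083750-52255039, plus strand), whose receptor also binds the collagen IV of basement membranes, was listed at 349 and 174 normalized counts in soft IPN (replicates 1 and 2), 421 and 187 in stiff IPN, 303 and 189 in soft col:rBM, and 560 and 265 in stiff col. Stiff col gave the highest value in both replicates, but replicate 1 was the higher library in every gel and the gels overlapped. ITGA2 (chr5:52285170-52390609, plus strand), the main receptor for fibrillar collagen in epithelia, was listed at 2467 and 2659 in soft IPN, 3942 and 1789 in stiff IPN, 2428 and 2534 in soft col:rBM, and 2730 and 3449 in stiff col. The ITGA2 extremes of the whole set, 3942 and 1789, were both stiff IPN libraries. The shared beta subunit ITGB1 (chr10:33176201-33294720, minus strand) was listed at 33583 and 29816 in soft IPN, 33065 and 21026 in stiff IPN, 42214 and 28032 in soft col:rBM, and 47616 and 30656 in stiff col. Stiff col again held the top ITGB1 value within each replicate, and the highest library exceeded the lowest by 2.26-fold over the whole set.

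ITGA3 (chr17:48133332-48167845, plus strand), the laminin-binding alpha subunit, varied least of the 10, with a ratio of 1.79 between its highest and lowest libraries. It was listed at 17017 and 24366 normalized counts in soft IPN, 17124 and 13578 in stiff IPN, 20410 and 21363 in soft col:rBM, and 19586 and 17035 in stiff col. Stiff IPN was the lowest gel in replicate 2 and the second lowest, close to soft IPN, in replicate 1.

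ITGA5 (chr12:54789045-54813050, minus strand), the fibronectin receptor alpha subunit, was lowest in stiff IPN within each replicate. It was listed at 41410 and 22332 normalized counts in soft IPN, 21889 and 4560 in stiff IPN, 59791 and 15080 in soft col:rBM, and 60270 and 13618 in stiff col. Both stiff IPN libraries lay below both soft IPN libraries, although by a narrow margin, since 21889 in replicate 1 of stiff IPN was close to 22332 in replicate 2 of soft IPN. Relative to ITGB1 per kb in the same library, ITGA5 stood at 2.43 and 1.48 in soft IPN, 1.31 and 0.428 in stiff IPN, 2.79 and 1.06 in soft col:rBM, and 2.50 and 0.876 in stiff col. The ratio was thus lowest in stiff IPN in both replicates, so the alpha subunit changed more than its beta partner there.

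ITGAV (chr2:187454737-187545628, plus strand), the alpha subunit shared by the remaining receptors, was listed at 1807 and 2176 normalized counts in soft IPN, 2680 and 2263 in stiff IPN, 1982 and 2407 in soft col:rBM, and 2652 and 3715 in stiff col. In each replicate the stiff gel of a pair was the higher one. Its partner ITGB6 (chr2:160956178-161056824, minus strand), an epithelial subunit that binds fibronectin and latent TGF-beta, was listed at 860 and 1258 in soft IPN, 1918 and 2442 in stiff IPN, 821 and 1406 in soft col:rBM, and 1019 and 2571 in stiff col. ITGB6 was therefore about as low in soft col:rBM as in soft IPN, and each stiff gel exceeded the matching soft gel in both replicates.

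ITGB8 (chr7:20370325-20455377, plus strand), whose receptor also binds latent TGF-beta, was listed at 614 and 568 normalized counts in soft IPN, 950 and 710 in stiff IPN, 423 and 705 in soft col:rBM, and 391 and 817 in stiff col. Its replicates gave opposite orders, with stiff col the lowest gel in replicate 1 and the highest in replicate 2. ITGB5 (chr3:124480795-124620265, minus strand), the vitronectin receptor subunit, was listed at 2856 and 2531 in soft IPN, 2251 and 1386 in stiff IPN, 3039 and 1863 in soft col:rBM, and 3048 and 1848 in stiff col, lowest in stiff IPN within each replicate. ITGB3 (chr17:45331193-45391109, plus strand), best known from platelets and blood vessels, was listed at 275 and 29 in soft IPN, 161 and 38 in stiff IPN, 433 and 22 in soft col:rBM, and 717 and 49 in stiff col. Every replicate 1 library exceeded every replicate 2 library for ITGB3, with a 32.6-fold range over the set. In the hg19 annotation, 33.2% of ITGB3 exon bases are shared with a read-through gene and 16.7% of ITGB6 exon bases with a long non-coding RNA on the same strand, and how such reads were assigned was not tested.

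**Figure D2:**
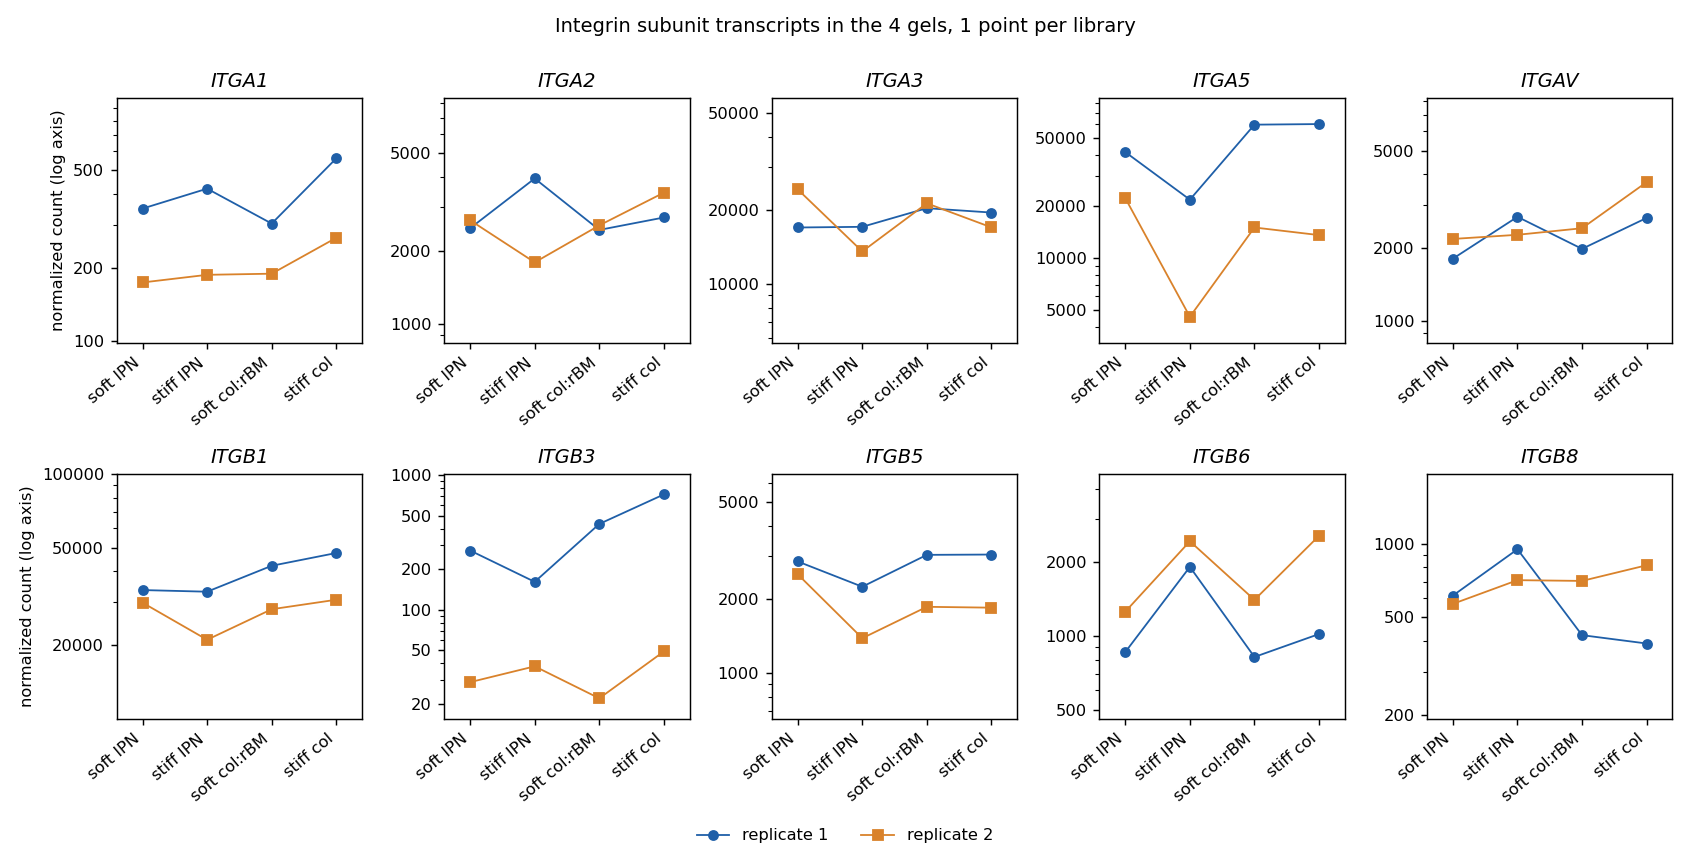
Normalized counts (log axis, its own range in each panel) of the 10 subunit genes in the 4 gels, with circles for replicate 1 and squares for replicate 2 and lines joining the libraries of a replicate. ITGA5 dips in stiff IPN and ITGB6 rises there in both replicates, while for ITGB3, ITGA1 and ITGA5 the replicates are separated within every gel.

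No member separated the collagen-containing gels from the IPNs. The count of members whose 4 collagen-gel libraries all lay above, or all below, the 4 IPN libraries was 0 of 10, against 3.32% of all genes tested. Within replicate 1 alone both collagen gels exceeded both IPNs for ITGA3, ITGA5, ITGB1, ITGB3 and ITGB5 and lay below them for ITGB8, and within replicate 2 they exceeded them for ITGA1 and ITGAV, so no member showed it in both. Of all genes tested, 42.4% and 35.7% showed this in replicate 1 and in replicate 2. In limma without the replicate number, none of the 10 members passed an adjusted p of 0.05 and none had an unadjusted p under 0.05, beside 0.0% of all genes called. With the replicate number as a block, still 0 of 10 passed, against 0.928% of all genes. The median log2 difference of the members was 0.18, from -0.33 for ITGB8 to 0.75 for ITGA5, against a median of 0.01 over all genes. The difference for ITGA5 was 0.75 ± 0.22 on the log2 scale (SE, with the block, adjusted p = 0.158), and that for ITGB1 was 0.33 ± 0.12 (adjusted p = 0.270). For the collagen receptors ITGA1 and ITGA2 the 95% intervals with the block ran from -0.10 to 0.51 and from -0.43 to 0.59. Without the block they ran from -0.71 to 1.12 and from -0.49 to 0.66. All of these contain no change as well as falls and rises of up to about these sizes. This count of 0 depended on the stiff IPN libraries. Without stiff IPN replicate 1, ITGA2 at 0.41, ITGA5 at 0.90 and ITGAV at 0.39 passed in the blocked fit. Without stiff IPN replicate 2, ITGB3 passed at 1.12. More genes of the whole table passed in these fits as well, so the added calls are not a result about the members.

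In the stiff gels, ITGA5 was 2.87-fold higher in stiff col than in stiff IPN. The log2 difference was 1.46 within replicate 1 and 1.58 within replicate 2, with a fitted value of 1.52 ± 0.31 (SE) and an adjusted p of 0.0472 with the block, and of 0.847 without it. It was the single member called of 10 with the block, against 2.47% of all genes, and no member was called without it, beside 0.0% of all genes. Without stiff col replicate 1, stiff col replicate 2 or stiff IPN replicate 2, the ITGA5 difference was 1.30, 1.74 and 1.23 and its adjusted p was 0.381, 0.128 and 0.0875. Without stiff IPN replicate 1, ITGA2 (0.86) and ITGAV (0.64) were called beside ITGA5, and without stiff IPN replicate 2 ITGB3 (2.11) was called in its place. More genes of the whole table were called in these fits as well. In the fit to all libraries, the other members had log2 differences between -0.54 for ITGB8 and 1.25 for ITGB3, and the median of the 10 was 0.39 against 0.00 over all genes. ITGB1 and ITGB5 gave nearly the same differences in both replicates, 0.53 and 0.54 for ITGB1 and 0.44 and 0.41 for ITGB5, but with adjusted p of 0.153 and 0.233 they did not pass. The collagen receptor subunit ITGA1 gave 0.41 and 0.50 (adjusted p = 0.237), while ITGA2 gave -0.53 and 0.95, of opposite sign. For no member did both stiff col libraries lie beyond both stiff IPN libraries, against 30.9% of all genes.

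Between the soft gels no member was called, and the differences were the smallest of the comparisons. The log2 differences of soft col:rBM from soft IPN ranged from -0.18 for ITGB5 to 0.14 for ITGAV, and the median of 0.01 stood beside 0.00 over all genes. None of the 10 was called in limma, without the block (0.0% of all genes called, and 0 of 10 at an unadjusted p under 0.05) or with it (0.0224%), and none had libraries without overlap, against 20.7% of all genes. With the block, the interval was widest for ITGB3, from -0.93 to 1.20. Those of ITGB8 (-0.87 to 0.65), ITGA2 (-0.77 to 0.68) and ITGA5 (-0.72 to 0.68) were also wide. The interval for ITGA1, from -0.47 to 0.38, was narrower, and that for ITGB5, from -0.57 to 0.22, was the narrowest.

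ITGA5 was lower and ITGB6 higher in stiff IPN than in soft IPN, gels that differed in calcium as well as stiffness. The ITGA5 log2 difference of stiff from soft IPN was -0.92 within replicate 1 and -2.29 within replicate 2, fitted at -1.61 ± 0.31 (SE, adjusted p = 0.0373 with the block and 0.612 without). ITGB6 was 2.08-fold higher, with log2 differences of 1.16 and 0.96, fitted at 1.06 ± 0.22 (adjusted p = 0.0446 with the block and 0.532 without). These were 2 of 10 members called with the block, against 3.82% of all genes, and 0 of 10 without it, beside 0.0% of all genes. Without soft IPN replicate 2, ITGA5 was at -0.99 and ITGB6 at 0.92, and neither passed. Fewer genes of the whole table passed in that fit as well. Without stiff IPN replicate 2, ITGA5 was at -1.31 (adjusted p = 0.0582), and without soft IPN replicate 1, ITGB6 was at 1.19 (adjusted p = 0.108). Without stiff IPN replicate 1, ITGA2 (-0.60) and ITGB5 (-0.69) were called in addition. Without stiff IPN replicate 2, ITGA2 was called in the other direction (0.71), with ITGAV (0.61). More genes of the whole table were called without either stiff IPN library as well. ITGB5 was lower in both replicates, by -0.34 and -0.87 (fitted -0.61 ± 0.17, adjusted p = 0.0855), and the ITGB1 values were -0.02 and -0.50. The libraries of ITGAV, ITGB6 and ITGB8 were higher without overlap and those of ITGA5 and ITGB5 lower, 5 of 10 members against 41.9% of all genes, a share near the background.

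Stiff col and soft col:rBM, which also differ in col-1 density and, by name, in rBM, gave no called member. The largest log2 differences were 0.92 for ITGB3, 0.68 for ITGA1, 0.59 for ITGB6 and 0.52 for ITGAV, all positive in both replicates, with adjusted p of 0.862 for ITGA1 and 1.0 for the other three with the block. No gene of the whole table was called in this comparison (0.0% with the block and 0.0% without). The libraries of ITGA2 and ITGAV were higher in stiff col without overlap and those of ITGA3 lower, 3 of 10 against 19.0% of all genes. ITGB6 thus had positive differences of stiff from soft gel in both systems, 1.06 in the IPNs and 0.59 in the collagen gels. The difference of these effects was -0.47, with a 95% interval from -1.19 to 0.26 with the block and from -1.99 to 1.06 without it. For ITGA5 the effects were -1.61 and -0.07. Their difference of 1.54 ± 0.43 (SE, with the block) had an unadjusted p of 0.00724 and an adjusted p of 0.344. The tested difference of the stiffness effects called 0 of 10 members without the block (0.0% of all genes) and 0 of 10 with it (0.015%). ITGA2 passed, at 0.91, without stiff IPN replicate 1, where more genes of the whole table passed as well.

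**Figure D3:**
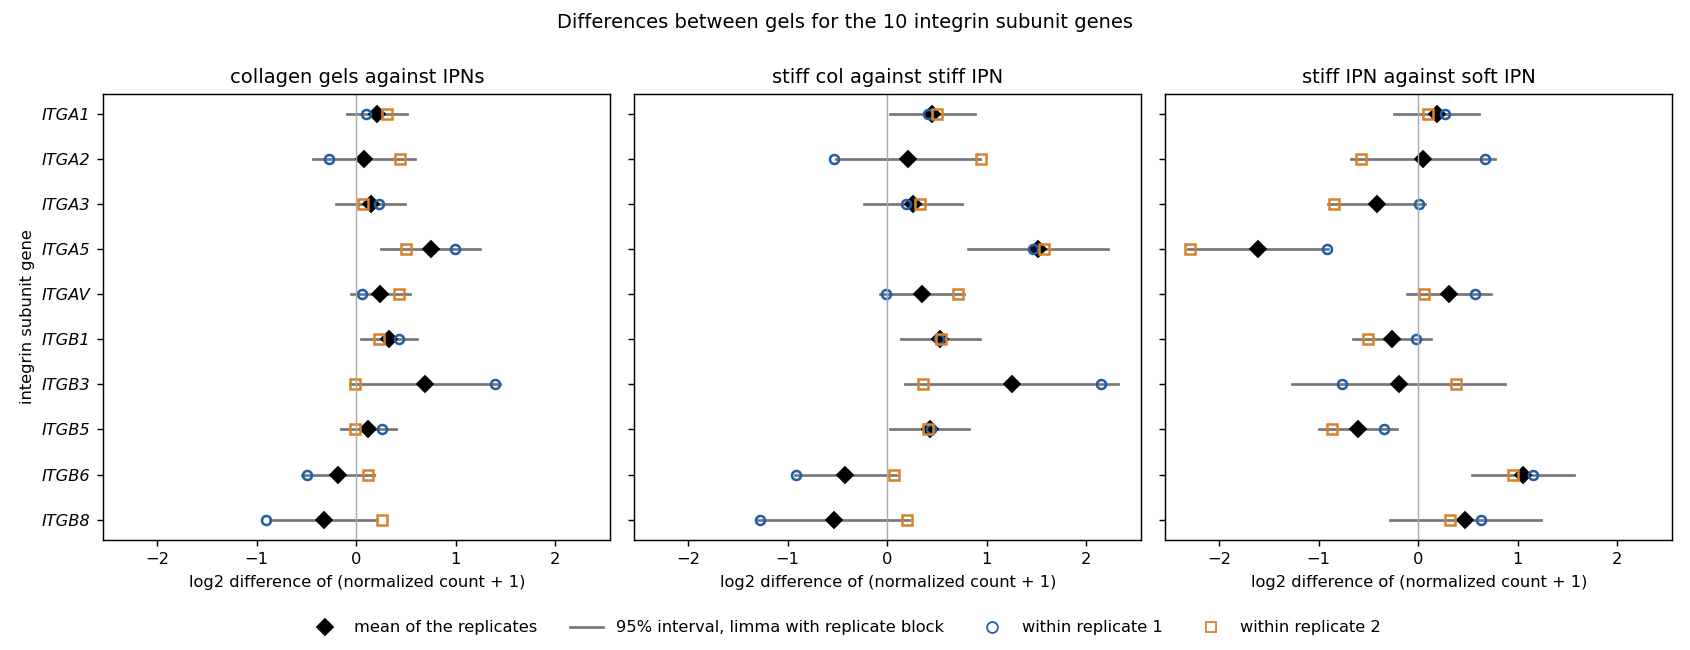
Log2 differences of normalized count + 1 for the 10 members in 3 comparisons, with diamonds for the mean of the replicates, grey lines for the 95% interval of limma with the replicate block, and open symbols for each replicate. ITGA5 lies at 1.52 for stiff col against stiff IPN and at -1.61 for stiff against soft IPN, ITGB6 lies at 1.06 for stiff against soft IPN, and most other intervals include 0.

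More members differed between the replicates than in any comparison of gels. With the gels held constant, 6 of 10 members differed between replicate 2 and replicate 1, against 27.1% of all genes, which is a test of the replicate term chosen after the data were seen. ITGB3 was lower in replicate 2 by -3.33 ± 0.33 on the log2 scale (SE, adjusted p = 0.00178), ITGA5 by -1.82 ± 0.22 (adjusted p = 0.00255) and ITGA1 by -0.98 ± 0.13 (adjusted p = 0.00378). ITGB5 at -0.58 and ITGB1 at -0.51 were also lower, and ITGB6 was higher at 0.75 (adjusted p = 0.0133, 0.0195 and 0.0130). These 6 had the same sign in all 4 gels, whereas ITGA2, ITGA3, ITGAV and ITGB8 had both signs. Leaving out a library of soft col:rBM or of stiff col ended the calls for ITGB1 (-0.49 and -0.47) and ITGB5 (both -0.53). Leaving out one of soft IPN ended that for ITGB6 (0.82), and leaving out one of stiff IPN added calls for ITGAV (0.34) and ITGB8 (0.56). Calls over the whole table moved the same way, fewer without a library of soft col:rBM, stiff col or soft IPN and more without one of stiff IPN. The size for ITGA5 depended on the gel, from -0.89 in soft IPN to -2.26 in stiff IPN. What the replicates share, such as day, cells or gel batch, is not given in the labels and cannot be told apart.

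**Figure D4:**
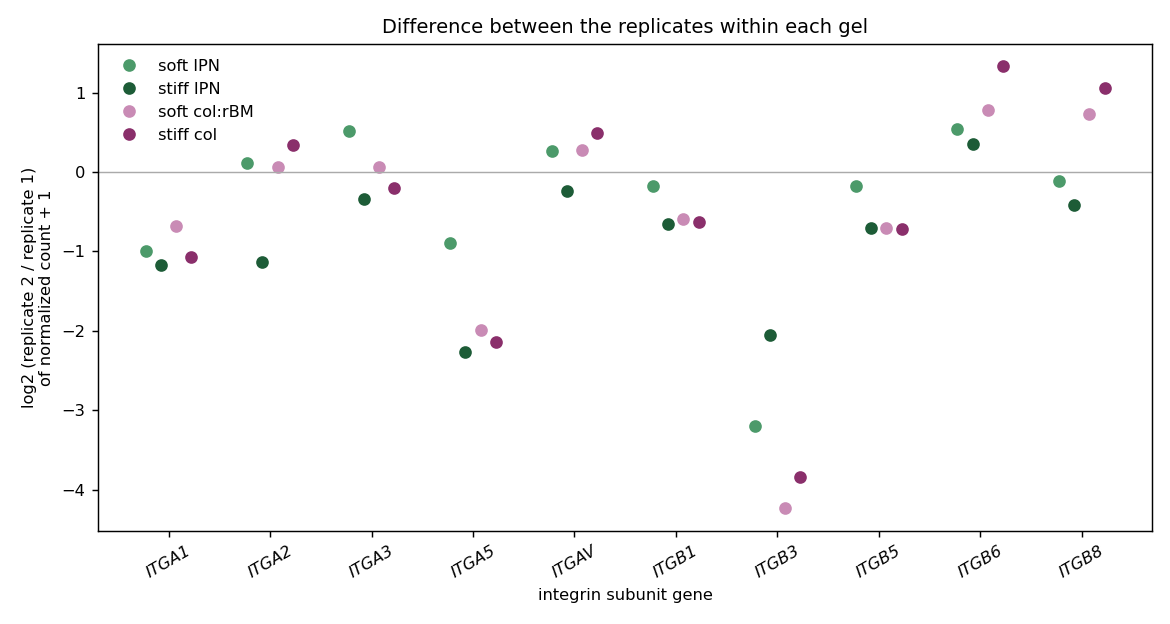
Log2 ratio of replicate 2 to replicate 1 (normalized count + 1) for each member, with 1 point per gel. ITGB3 lies between -2.05 and -4.24, ITGA5 between -0.89 and -2.26 and ITGA1 between -0.68 and -1.17, all below 0 in the 4 gels, while ITGB6 lies between 0.35 and 1.33.

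Among the other integrin subunits, 10 of 16 listed genes were tested and 2 were called in a comparison of gels with the block, and none without it. Between the stiff gels 1 of 10 was called, against 2.47% of all genes, and between the IPNs 2 of 10, against 3.82%. ITGA10, a further collagen-binding alpha subunit, was listed at 670 and 240 normalized counts in soft IPN, 295 and 89 in stiff IPN, 479 and 210 in soft col:rBM, and 721 and 262 in stiff col. Like ITGA5 it was lowest in stiff IPN within each replicate, with a log2 difference of -1.30 ± 0.18 (SE) from soft IPN (adjusted p = 0.0229) and of 1.42 ± 0.18 for stiff col against stiff IPN (adjusted p = 0.0134). ITGB4, the beta subunit of the hemidesmosomal laminin receptor, was listed at 43446 and 36407 in soft IPN, 21849 and 9669 in stiff IPN, 59921 and 27008 in soft col:rBM, and 33628 and 15995 in stiff col. Its difference of stiff from soft IPN was -1.45 ± 0.24 (adjusted p = 0.0292). The medians of the 10 tested genes were 0.62 for stiff col against stiff IPN and -0.14 for stiff against soft IPN, beside 0.00 and -0.01 over all genes. The ITGB4 call and that of ITGA10 between the IPNs were lost without soft IPN replicate 2 (adjusted p up to 0.235 and 0.311), and the latter also without soft IPN replicate 1. The ITGA10 call between the stiff gels was lost without either stiff col library or without soft IPN replicate 1 (adjusted p up to 0.129).

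Genes of the matrix ligands that these receptors bind were called in several comparisons with the block, and in none without it. Of 14 RGD ligand genes 10 were tested, and with the block 2 were called between collagen gels and IPNs (1 higher), 4 between the stiff gels (3 higher) and 4 between the IPNs (2 higher in stiff IPN). Of all genes, 0.928%, 2.47% and 3.82% were called in these comparisons. Without the block none of the 10 was called, beside 0.0% of all genes, and the p-values below are with the block. FN1, fibronectin, the ligand of the ITGA5 receptor, was listed at 11610 and 9691 in soft IPN, 7577 and 3936 in stiff IPN, 28969 and 11569 in soft col:rBM, and 57569 and 23828 in stiff col. Stiff col exceeded all other gels within each replicate, and FN1 was higher by 2.76 ± 0.25 on the log2 scale (SE) than in stiff IPN (adjusted p = 0.00527) and by 1.77 ± 0.18 in collagen gels than in IPNs (adjusted p = 0.00631). FBN1, the RGD-containing microfibril protein fibrillin-1, was listed at 327 and 323, 144 and 82, 502 and 254, and 661 and 258 in the same order of gels, lower in stiff than in soft IPN (-1.57 ± 0.29, adjusted p = 0.0363) and higher in stiff col than in stiff IPN (1.92 ± 0.29, adjusted p = 0.0218). TNC, tenascin-C, a ligand of ITGAV receptors, was listed at 41 and 191, 194 and 1118, 32 and 127, and 39 and 241. It rose in stiff over soft IPN by 2.38 ± 0.24 (adjusted p = 0.00816) and gave -2.25 ± 0.24 for stiff col against stiff IPN (adjusted p = 0.00781) and -1.36 ± 0.17 for collagen gels against IPNs (adjusted p = 0.0172). FN1 between the stiff gels was past the threshold without any 1 library (adjusted p up to 0.0290). The FN1 call between collagen gels and IPNs was lost without soft IPN replicate 1 (0.0946), those of TNC and FBN1 between the IPNs without soft IPN replicate 2 (0.235 and 0.374), those between the stiff gels without stiff col replicate 1 (0.0605 and 0.173), and that of TNC between collagen gels and IPNs without any of 4 libraries (adjusted p up to 0.225).

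Of 10 collagen genes 7 were tested, and with the block 3 were called between the stiff gels, all higher in stiff col, and 2 between the IPNs, both lower in stiff IPN. Of all genes, 2.47% and 3.82% were called in these comparisons. Without the block none of the 7 was called, beside 0.0% of all genes, and the p-values below are with the block. COL6A3, a chain of the microfibrillar collagen VI, was listed at 185 and 249 in soft IPN, 160 and 35 in stiff IPN, 377 and 275 in soft col:rBM, and 688 and 481 in stiff col, so that all 4 collagen-gel libraries exceeded all IPN libraries. Its log2 difference between the stiff gels was 2.92 ± 0.50 (SE, adjusted p = 0.0279), a call kept without either stiff IPN library and lost without any of the other 6. The other calls between the stiff gels were COL4A1 and COL4A2, chains of collagen IV, at 1.16 and 1.34. COL6A2 and COL6A1, partner chains of COL6A3, did not pass there (adjusted p = 0.102 and 0.0572). They were lower in stiff than in soft IPN, with differences of -2.57 ± 0.50 and -1.46 ± 0.26 (adjusted p = 0.0377 and 0.0344). COL6A2 was low throughout, from 3 to 68 normalized counts, with the 3 of stiff IPN replicate 2 under the 3.29 that 3 reads were worth there. Both calls were lost without soft IPN replicate 2 (adjusted p = 0.399 and 0.378).

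**Figure D5:**
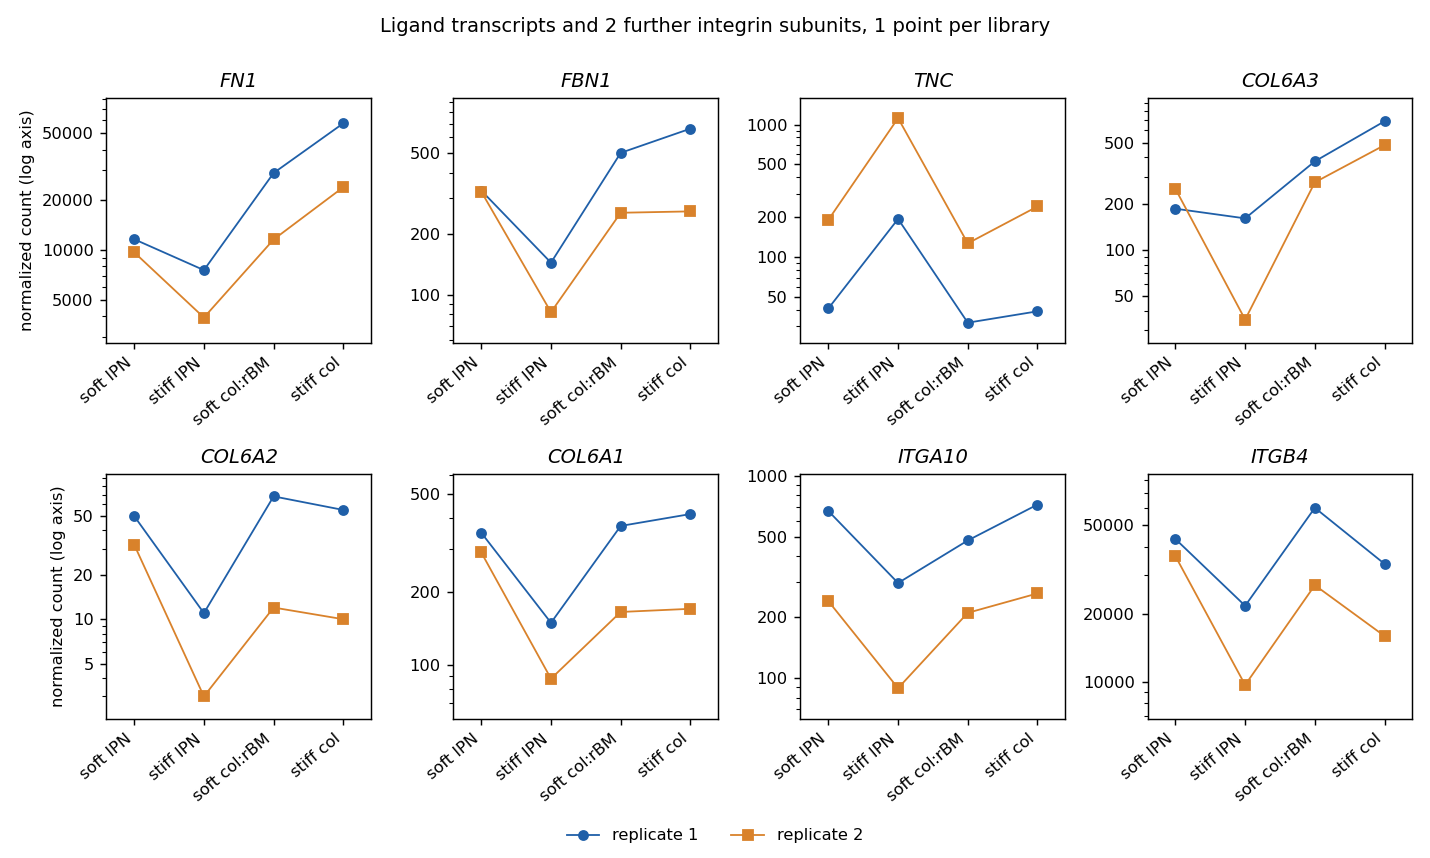
Normalized counts (log axis, its own range in each panel) of 3 RGD ligands, 3 collagen VI chains, ITGA10 and ITGB4 in the 4 gels, with circles for replicate 1 and squares for replicate 2. FN1 reaches 57569 and 23828 in stiff col, TNC peaks at 194 and 1118 in stiff IPN, and FBN1, ITGA10, ITGB4 and the collagen VI chains are lowest in stiff IPN within each replicate.

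Of the genes for proteins that link integrins to the cytoskeleton, 1 of 34 tested was called, a share near that of all genes. The list held 36 adhesion adaptor genes, such as talins, kindlins, paxillin and vinculin, of which 34 were tested. None passed without the block, and with it TENC1 passed in the comparisons that also called ITGA5. That was 1 of 34 in each, against 2.47% of all genes between the stiff gels and 3.82% between the IPNs. TENC1, the tensin now named TNS2, which binds the tails of beta subunits, was listed at 443 and 416 normalized counts in soft IPN, 232 and 165 in stiff IPN, 335 and 324 in soft col:rBM, and 494 and 406 in stiff col. Both stiff IPN libraries lay below all others. The log2 difference was -1.13 ± 0.18 (SE) for stiff against soft IPN (adjusted p = 0.0273) and 1.19 ± 0.18 for stiff col against stiff IPN (adjusted p = 0.0200). Both calls were lost without either soft IPN library, and the call between the stiff gels also without either stiff col library (adjusted p up to 0.352 and 0.191). The medians of the 34 genes were 0.04 for stiff col against stiff IPN and -0.25 for stiff against soft IPN, where 25 of the 34 had values below 0, beside 0.00 and -0.01 over all genes. Of 9 other matrix receptors, all tested, none was called in a comparison of gels. Between collagen gels and IPNs, 0.928% of all genes were called with the block and 0.0% without. BCAM and SDC4 were named because their libraries did not overlap between those gels, so that separation is not a result. Of all genes, 3.32% had no overlap there. BCAM, a laminin receptor of the immunoglobulin family, was lower in all collagen-gel libraries (10 to 23 normalized counts) than in all IPN libraries (29 to 88), at -1.16 ± 0.39 on the log2 scale (SE, adjusted p = 0.220). SDC4, a heparan sulfate proteoglycan that acts with the ITGA5 receptor on fibronectin, ranged from 4660 to 5024 in the collagen gels and from 6068 to 7013 in the IPNs (-0.44 ± 0.10, adjusted p = 0.0775).

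The transcripts whose pattern most resembled those of the 3 members with the largest spread of gel means were found by Pearson's r of log2(normalized count + 1) over the 8 libraries. ITGA5 (SD of gel means 0.79) was most like BOLA3-AS1 (r = 0.998) and PHC2 (r = 0.996). ITGB3 (0.56) was most like ARL1 (r = 0.992) and RGCC (r = 0.992), and ITGB6 (0.51) was most like RANBP6 (r = 0.984) and GNPTAB (r = 0.975). These are the highest of 13369 genes compared, over 8 libraries that share gels and replicates, and BOLA3-AS1 is an antisense RNA whose reads cannot be told from its partner's without strand.

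Markers of mammary epithelium, basal ones among them, were present throughout, with KRT5 at 7417 to 44022 and TP63 at 622 to 1865 normalized counts. In the fit with the block, 3 of 6 were lower in collagen gels than in IPNs, against 0.928% of all genes called. Among them were CDH1 (E-cadherin) at -0.89 and KRT17 at -1.83. Between the stiff gels 4 of 6 were lower in stiff col with the block, against 2.47% of all genes called. Without the block none of the 6 was called in these comparisons, beside 0.0% of all genes. TP63 was the marker that went the other way, at 0.15 and 0.07 in these comparisons, and was not called. The summed level of the 6 markers, most of it KRT5 and KRT17, was 43710 to 125709 in stiff IPN and 13334 to 45044 in stiff col, beside the ITGA5 difference of those gels. The fibroblast markers PDGFRA, PDGFRB, LUM and THY1 were listed at 0 to 9 normalized counts. DCN was listed at 526 to 1217 and COL1A1 at 168 to 333. PTPRC, the general leukocyte marker, was at 0 in all libraries. The 6 fibroblast markers summed to 775 to 1468, almost all of it DCN and COL1A1, and the 3 endothelial markers to 3 to 33. The 4 leukocyte markers summed to 2100 to 4229 in soft IPN, 331 to 1231 in stiff IPN, 1357 to 5028 in soft col:rBM and 1005 to 4372 in stiff col, nearly all of it CD68, a lysosomal protein that is not limited to leukocytes. CD68 differed between stiff and soft IPN by -2.24 and between stiff col and stiff IPN by 1.72, the directions that ITGA5 showed. The part of these markers in the ITGA5 differences was not tested.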

How the data were processed

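RNA-seq libraries (TruSeq, paired-end) of MCF10A cells in 4 gels, 2 per gel, were analysed from 1 table. Per the labels and methods, the authors trimmed reads with Trim Galore 0.3.3, aligned them to hg19 (TopHat2 2.0.13 in the processing notes, Bowtie2 in the methods), filtered with SAMtools 1.1, counted with HTSeq and normalized with DESeq2 in R 3.2.0. The deposited values are signal: read counts divided by a factor per library and rounded, so no count model was used. Annotation and strand setting are not given in the sources used here, and 28 symbols altered to dates by a spreadsheet were kept as listed.

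Log2(normalized count + 1) of 13369 genes was fitted with limma 3.58.1 (1 mean per gel, trend and robust moderation), with Benjamini-Hochberg adjustment over all genes and a threshold of 0.05. Fold changes on this scale understate those of low genes. Deviations from gel means correlated between same-numbered libraries in all 6 pairs of gels (r = 0.278 to 0.819), and the study describes independent trials, so the fit with the replicate as a block is given beside the other. Data were simulated for stiff col against stiff IPN over 13369 genes, with 200 genes changed by 2 on the log2 scale. With a shift between replicates, the blocked fit recovered 71.8% and the unblocked fit 45.0%, with 3.6 and 0.0 false calls on average. Without a shift they recovered 69.4% and 75.8%. The simulated shift was the same in all gels, unlike that of these data, so the simulation does not show which fit is better here. The members and lists were chosen with earlier results of these data known. A marker of the epithelial list is not reported here and was left out of its counts and sums. All members were named, and from each list up to 3 called genes with the largest change or, where none was called, the 2 with the largest change without overlap between collagen gels and IPNs. COL4A1 and COL4A2 were named in addition. Alternatives were other scalings, pseudocounts, filters, moderation, samples in the fit and leaving out each library. The p-values without the block cover the spread between 2 libraries per gel, which the study describes as independent trials. Those with the block cover what is left of that spread once the mean difference between replicates is removed. Positions and lengths are from the GENCODE annotation of hg19, which may differ from the one the authors used.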

Additional observations from a re-analysis of the deposited data

Results flagged for a closer look

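ITGB1, the beta subunit shared by the collagen, laminin and fibronectin receptors, had fitted stiffness effects of opposite sign in the 2 gel systems. Within each system both replicates had the same sign, although replicate 1 barely changed between the IPNs. Its log2 difference was -0.26 for stiff against soft IPN (-0.02 and -0.50 in replicates 1 and 2) and 0.15 for stiff col against soft col:rBM (0.17 and 0.13). The difference of these effects, 0.41, was tested in limma and did not pass, with an adjusted p of 1.0 without the replicate block and of 0.633 with it.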

How the results depend on the processing

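With 2 libraries per gel, results for a single member rested on few values, and the depth, which is only estimated, limited ITGB3 in replicate 2 most. Including the replicate block raised the members called from 0 to 1 for stiff col against stiff IPN and from 0 to 2 for stiff against soft IPN, and changed no other member count. The counts without the block stayed at 0 under every other alternative tried, and the count of members without overlap between collagen gels and IPNs stayed at 0 under those tried for it. With the block, TMM rescaling, an alternative chosen after seeing the data, left each count of members as it was. Leaving out 1 library at a time from the blocked fit, also chosen after seeing the data and with the lone remaining library assumed to vary like the others, gave 0 to 3 members called for collagen gels against IPNs, 0 to 3 for stiff col against stiff IPN, 0 to 4 for stiff against soft IPN, and 0 to 1 for the difference of the stiffness effects.

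Without the block, leaving out 1 library reversed the sign of uncalled differences. For collagen gels against IPNs the log2 differences ran from -0.085 to 0.50 for ITGA1, -0.20 to 0.37 for ITGA2, -0.37 to 1.75 for ITGB3, -0.055 to 0.31 for ITGB5 and -0.52 to 0.15 for ITGB6. For stiff col against stiff IPN they ran from -0.13 to 1.04 for ITGA1, -0.36 to 0.78 for ITGA2, -0.67 to 3.18 for ITGB3 and -1.09 to 0.25 for ITGB6. For stiff against soft IPN they ran from -0.40 to 0.77 for ITGA1, -0.52 to 0.62 for ITGA2, -0.59 to 0.063 for ITGB1 and -1.80 to 1.41 for ITGB3. Between the replicates, with the block, they ran from -0.32 to 0.17 for ITGA2 and -0.16 to 0.13 for ITGA3. The cause was not tested.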
